A study of Mus musculus with 8 samples.

Results

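At the promoters of 69 genes taken by symbol stems of the cell cycle, DNA replication, chromosome segregation and DNA repair, 0 of 70 ATAC-seq peaks differed past the threshold. The comparison was mouse kidney tubuloids with and without myoglobin for 12 h. Only genes with a start-site peak could enter, and of 31 set names 12 did. How far the group as a whole was open is therefore not a result here. The peaks were taken by gene symbol and position alone. The symbol had to start with a stem of this group (Ccna to Ccne, Cdk, Cdc, Mcm, Orc, Pola, Pold, Pole, E2f, Anapc, Ncap, Smc, Rad, Fanc, Cenp, Kif and several others). The peak centre had to be at most 1000 bp from the annotated start site, and Ccne1 was left out by name. This gave 70 of the 6425 peaks in the table and 70 of the 4162 start-site peaks, with 2 peaks at Cdk9 and 1 at each other gene. The stems also covered the Hist, Rfc, Bub, Plk and Brca genes, but 0 rows analysed carried such a symbol, so no replication-dependent histone promoter is described here. The 1 symbol taken by the Aurk stem was Aurkaip1, a gene of mitochondrial ribosomes. In all, 12 of the 70 peaks were sorted into a group of genes that share a stem but have mixed or other roles. These range from Cdc42se2, an effector of the Cdc42 GTPase, to Cdc34, the ubiquitin-conjugating enzyme of SCF ligases, which does act at the entry into S phase. Some genes kept in the remaining groups, such as Cdk9 and Kif3a, also have other roles. The nearest peaks outside the distance limit were at Fancl (1329 bp), Kif16b (1566 bp) and Ccnd1 (1664 bp). The Ccnd1 peak read 35, 26, 33 and 33 in vehicle replicates 1 to 4 and 33, 26, 24 and 34 in myoglobin replicates 1 to 4.

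A cell that divides first raises cyclin-dependent kinase activity, which releases E2F factors to switch on the genes of S phase, such as those of the MCM helicase and DNA polymerases. Genes of mitosis, among them the kinetochore and spindle motor genes, follow later and are held down in resting cells by the DREAM complex, which binds E2F sites and the cell cycle homology region, a short element often paired with CCAAT boxes. Kidney tubule cells divide little in healthy adults and re-enter the cycle after acute injury, when cells that survive replace those that were lost.

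The samples were ATAC-seq libraries, in which the Tn5 transposase puts sequencing adapters into open DNA, from primary tubuloids, which are epithelial structures grown in Matrigel from digested kidney cortex. All were labelled wildtype, and 4 libraries were treated with vehicle and 4 with myoglobin, the haem protein that damaged muscle releases and that was used here as the injury. The sources used here give no dose, no composition of the vehicle and no age of the mice. The series text names 4 mice, but no label says which libraries share a mouse, so p-values measure only the spread between these libraries, which may be technical.

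Values are scaled peak values that were rounded to whole numbers before deposit. Library totals over all peaks lay between 124415 and 126782. The reads within these peaks, estimated from the steps in the values, ran from 130568 to 200680 in vehicle and from 67609 to 123453 in myoglobin libraries. Their myoglobin mean was 0.589 of the vehicle mean (two-sided exact permutation p = 0.0286, the smallest that 70 assignments allow). Depth and shallow below refer to these reads within peaks, since all reads of a library were not counted. Per library the median member peak rested on 17.5 to 24.9 estimated reads in vehicle and 10.2 to 16.3 in myoglobin, and the part of this gap in any difference below was not tested. As a check of the labelled cell type, marker genes with an assigned peak at any distance from the start site were counted. They were 4 of 7 general kidney epithelial markers (Cdh1, Cdh16, Epcam and Pax2). For proximal tubule it was 1 of 12 (Cryl1) and for the later segments 1 of 8 (Scnn1g). For endothelium, fibroblasts and pericytes, immune cells and podocytes the count was 0 of 4 each.

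Sequences are shown for Cdk1, E2f3, Mcm5 and Cdc25a, which carry E2F letters, and for Anapc16 and Smc6, which had the smallest p and the only separated groups among the members. Those shown with E2F letters all had an estimated difference below 0 (myoglobin minus vehicle). Of the 14 member peaks with such letters 3 were above 0 (Cenpl, Cenps and Ncapg), and they are not shown. Anapc16 and Smc6 were above 0, while 15 of the 42 member peaks without E2F letters were below 0. Each is the 250 bases before the RefSeq start site on GRCm38.p6, the assembly that mm10 names, written 5′ to 3′ on the gene's own strand. Capitals mark E2F letters, CCAAT boxes, which read ATTGG on the other strand, and the cell cycle homology region TTTGAA, which on the other strand reads TTCAAA. The one overlap among these matches is between 2 E2F matches in Mcm5. The places are chr10:69352913-69353162 on the minus strand for Cdk1, chr13:29986064-29986313 on the minus strand for E2f3, chr8:75109259-75109508 on the plus strand for Mcm5, chr9:109875329-109875578 on the plus strand for Cdc25a, chr10:60003136-60003385 on the minus strand for Anapc16 and chr12:11265636-11265885 on the plus strand for Smc6.
Cdk1: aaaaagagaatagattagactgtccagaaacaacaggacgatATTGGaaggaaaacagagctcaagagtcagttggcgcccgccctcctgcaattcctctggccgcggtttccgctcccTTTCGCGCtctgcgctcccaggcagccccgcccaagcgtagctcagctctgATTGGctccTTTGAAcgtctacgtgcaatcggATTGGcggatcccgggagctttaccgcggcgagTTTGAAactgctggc
E2f3: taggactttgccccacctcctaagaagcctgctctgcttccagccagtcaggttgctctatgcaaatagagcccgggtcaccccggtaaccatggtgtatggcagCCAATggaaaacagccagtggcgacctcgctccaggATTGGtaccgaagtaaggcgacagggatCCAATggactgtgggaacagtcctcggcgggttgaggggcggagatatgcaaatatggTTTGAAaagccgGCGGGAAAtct
Mcm5: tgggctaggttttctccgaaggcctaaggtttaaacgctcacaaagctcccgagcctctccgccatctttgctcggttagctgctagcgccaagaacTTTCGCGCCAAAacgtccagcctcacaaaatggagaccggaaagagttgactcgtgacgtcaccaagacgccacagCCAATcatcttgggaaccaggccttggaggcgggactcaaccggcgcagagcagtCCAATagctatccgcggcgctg
Cdc25a: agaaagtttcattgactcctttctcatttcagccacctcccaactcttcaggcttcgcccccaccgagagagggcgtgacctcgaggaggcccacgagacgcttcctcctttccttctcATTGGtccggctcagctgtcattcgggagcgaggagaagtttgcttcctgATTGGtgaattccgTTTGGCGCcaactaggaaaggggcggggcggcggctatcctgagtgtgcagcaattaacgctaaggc
Anapc16: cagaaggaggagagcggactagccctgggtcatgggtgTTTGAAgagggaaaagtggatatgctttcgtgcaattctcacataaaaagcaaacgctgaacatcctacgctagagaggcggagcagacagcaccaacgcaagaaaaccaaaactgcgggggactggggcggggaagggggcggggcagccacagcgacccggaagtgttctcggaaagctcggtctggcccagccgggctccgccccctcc
Smc6: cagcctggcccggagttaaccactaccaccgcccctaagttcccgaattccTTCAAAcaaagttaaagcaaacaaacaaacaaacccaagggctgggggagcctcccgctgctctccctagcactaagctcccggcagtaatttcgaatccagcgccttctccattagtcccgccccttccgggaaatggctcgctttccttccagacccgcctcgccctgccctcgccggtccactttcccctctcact

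In the Cdk1 promoter the E2F letters lie from -131 to -124 relative to the start site, with CCAAT boxes at -80 and -48 and TTTGAA at -71 and -15, all inside the ATAC-seq peak. A further CCAAT box at -208 lies outside it. Mcm5 has 2 overlapping E2F matches, 1 on each strand, from -153 to -142 inside the peak. For E2f3 the E2F letters at -11 and TTTGAA at -23 fall outside the peak, while its 3 CCAAT boxes lie inside. The Cdc25a peak sits farther upstream, and its E2F letters at -67 are outside it, as are the TTTGAA at -212 of Anapc16 and the TTCAAA at -199 of Smc6. RefSeq and the deposited table place the start site 26 bp apart for Cdk1 and 60 bp apart for Mcm5, and at the same base for the other 4.

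A RefSeq promoter with a start site within 1000 bp of the deposited one was matched for 55 of the 69 genes. Letters were searched on both strands over 300 bases, 250 before and 50 after the RefSeq start site. E2F letters (TTTGGCGC, TTTCCCGC, TTTCGCGC or TTTGCCGC) stood in 14 of 55 member promoters (25.5%), in 4.61% of 2926 other start-site promoters of the table and in 2.27% of 32841 RefSeq promoters of any gene. TTTGAA stood in 25.5% of members, 8.61% of the other start-site promoters and 17.9% of all promoters. The CCAAT box stood in 54.5%, 49.4% and 37.4%, the GC box GGGCGG in 83.6%, 77.2% and 35.7%, and the ETS letters CCGGAAG in 34.5%, 19.7% and 8.86% of the same sets. The TATA box letters TATAAA stood in 0 of the 55 member promoters, against 4.17% of the other start-site promoters and 13.6% of all promoters. The NRF1 core GCATGCGC was as rare in members (5.45%) as in the other start-site promoters (6.66%). Median GC content was 62.3% in members and 63.7% in the other start-site promoters, and the ratio of observed to expected CpG was 0.926 and 0.812. A second gene started head to head within 1000 bp in 17 of the 55 (30.9%, against 21.4%), among them Orc1 with Prpf38a, Smc6 with Gen1 and Anapc16 with Ascc1, and a peak there cannot be given to one gene of the pair. All these shares describe letters, not bound factors.

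**Figure D1:**
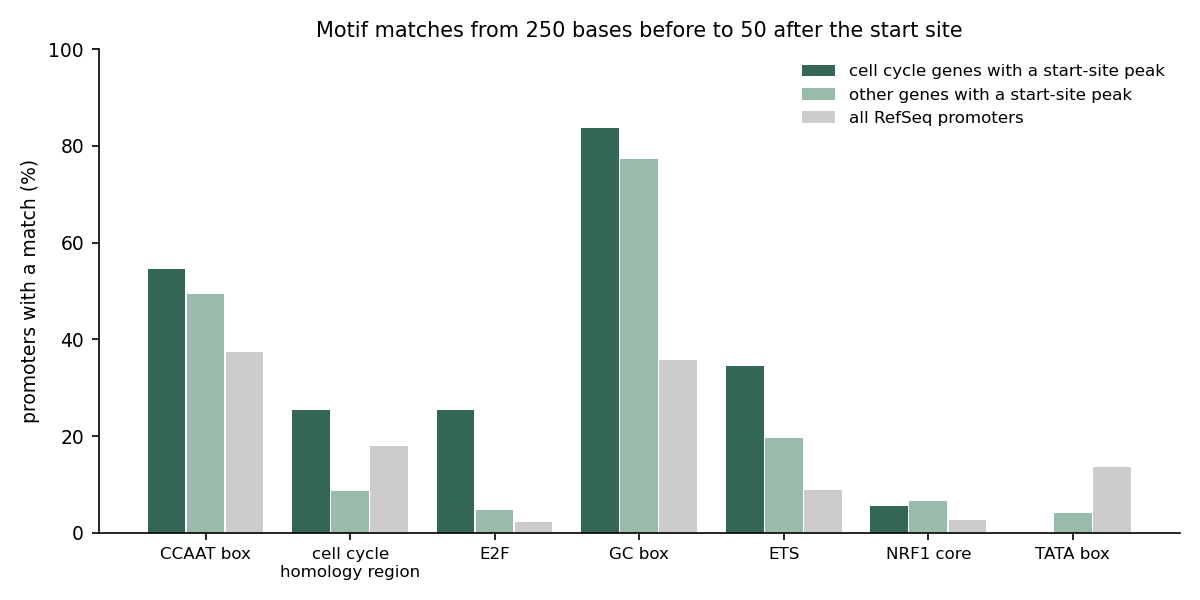
Share of promoters (percent, 300 bases, both strands) that hold each motif's letters, for the 55 member genes, the 2926 other start-site promoters of the table and 32841 RefSeq promoters of any gene. E2F letters stand in 25.5% of members against 4.61% and 2.27%, and TATA letters in 0.

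The member peaks were close to the start site and ordinary in height. They lay 0 to 471 bp from it, with 41 of 70 within 100 bp and E2f8 the farthest, and were 94 to 749 bp wide. The vehicle mean ran from 5.75, at Cenpl and Aurkaip1, to 52 at Cenpc. It was under 10 at 12 peaks and 40 or more at 6. Wider peaks held more signal, with a Spearman rho of 0.856 between width and vehicle mean across the 70 peaks, which share libraries and depth. Per 100 bp the median vehicle level was 7.50 in members and 7.87 in all start-site peaks. E2f3, an activator of S-phase genes, had the highest level per length, 15.0 per 100 bp, above 98.6% of start-site peaks. Fance (13.3), a subunit of the Fanconi anaemia core complex, and Ccna2 (13.2), the cyclin of S and G2 phase, came next. The order of vehicle means was carried over to myoglobin, with a rho of 0.915 across the 70 peaks. No library had a member peak at 0.

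Together the 70 peaks held 1339, 1309, 1374 and 1320 units in vehicle replicates 1 to 4 and 1281, 1385, 1417 and 1378 in myoglobin replicates 1 to 4. That was 1.06% ± 0.02 (SD, n = 4) of all signal in vehicle and 1.09% ± 0.04 (SD, n = 4) in myoglobin, and the groups overlapped. In bulk chromatin a smaller share of cells with an open promoter and a less open promoter in each cell cannot be told apart. With limma over all 6425 peaks and Benjamini-Hochberg adjustment, 16 peaks (0.249%) passed an adjusted p of 0.05, and 0 of the 70 members did. The 16 became 7, 9 or 8 without vehicle replicate 1, 2 or 4, and the members' count was 0 each time. The lowest adjusted p among members was 0.551, at Anapc16. At an unadjusted limma p under 0.05 stood 488 of all peaks (7.60%) and 6 of the 70 members (8.57%), a share near the background. Groups did not overlap at 195 of all peaks (3.04%), of which 93 were higher (1.45%) and 102 lower (1.59%) with myoglobin. Among members this was so for 1 peak, Smc6, which was higher.

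The median log2 difference, myoglobin minus vehicle on log2(value + 1), was 0.05 over the 70 members, -0.01 over all start-site peaks and -0.02 over all peaks. It was above 0 at 37 members and below 0 at 33, with extremes of 0.73 (Anapc16) and -0.83 (Cdk9), and no member's estimate reached 2-fold. The median over the members was near 0 under every scaling tried, and without myoglobin replicate 3 it was -0.017. At 35 members the estimate lay within 0.25 of 0. The 95% interval lay wholly inside 2-fold for 55 members (78.6%), against 80.1% of start-site peaks and 76.3% of all peaks. For the other 15 a 2-fold difference was not outside the interval at this depth. Low peaks were the least certain: the median half-width of the interval was 0.64 (log2) in the lower 35 by level and 0.45 in the upper 35. Within groups the members varied about as much as their neighbours, with a median SD of 0.36 (log2) against 0.34 in all start-site peaks.

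**Figure D2:**
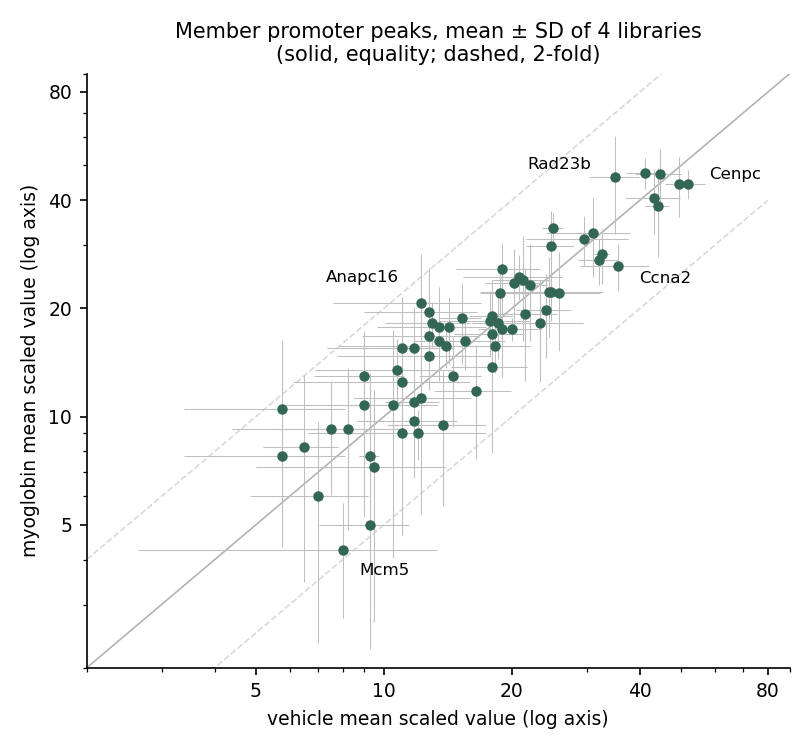
Mean scaled value of each member peak in the 4 vehicle libraries (x, log axis) and the 4 myoglobin libraries (y, log axis), with SD bars, the line of equality and dashed 2-fold lines. The points follow the line from 5.75 to 52 units, and the low peaks scatter most.

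Genes with a cyclin or Cdk symbol gave 13 peaks, with a median difference of -0.10 and a range of -0.83 to 0.47, 6 above 0 and 7 below. The group was drawn by symbol, and its lowest value was at Cdk9. Ccna2 held 35, 27, 43 and 37 units in vehicle and 30, 21, 26 and 28 in myoglobin (means 35.5 ± 6.61 and 26.2 ± 3.86, SD, n = 4). The 3 vehicle libraries other than replicate 2 were above every myoglobin library. Its log2 difference was -0.41 ± 0.19 (SE; limma adjusted p = 0.610). Cdk1, the kinase that drives entry into mitosis, held 16, 14, 22 and 20 in vehicle and 11, 17, 7 and 20 in myoglobin, a difference of -0.44 ± 0.28 (limma adjusted p = 0.741) with overlapping groups. It was -0.18 without myoglobin replicate 3 and -0.64 without myoglobin replicate 4. Ccnb1, the cyclin partner of Cdk1 in mitosis, held 12, 22, 17 and 20 against 19, 20, 13 and 22, a difference of 0.06 ± 0.25. Ccne2, a cyclin of the entry into S phase, held 16, 17, 13 and 15 against 13, 24, 21 and 17, a difference of 0.25 ± 0.26. Cdk4, the partner of D-type cyclins in G1, held 25, 26, 40 and 33 against 21, 37, 39 and 33, a difference of 0.05 ± 0.20. The groups overlapped at these 3 promoters, and the sign of the Ccnb1 and Cdk4 differences depended on single libraries, such as vehicle replicate 1, without which they were -0.10 and -0.04. Ccne2 was at 0.13 without myoglobin replicate 2 and 0.41 without replicate 1. Cdk9 encodes the kinase of transcription elongation rather than of the cycle. Its peak 281 bp from the start site held 10, 11, 6 and 10 against 6, 6, 2 and 6 (-0.83 ± 0.40, limma adjusted p = 0.633), while its peak at 87 bp held 10, 3, 9 and 8 against 8, 14, 7 and 8 (0.32 ± 0.37). The 2 estimates at this gene had opposite signs, each at low values, and the first was -0.52 without myoglobin replicate 3.

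Of the E2F factors, E2f1, E2f3, E2f5 and E2f8 had a start-site peak, with a median difference of 0.20 and a range of -0.17 to 0.26. E2f1, the activator released when Rb is phosphorylated, held 24, 17, 21 and 19 in vehicle and 28, 26, 15 and 25 in myoglobin (0.18 ± 0.23). E2f3 held 54, 45, 50 and 49 against 48, 35, 54 and 40 (-0.17 ± 0.16), and its 95% interval ran from -0.49 to 0.14. E2f5, a factor of the repressive complexes of resting cells, held 14, 21, 6 and 15 against 14 to 18 in the 4 myoglobin libraries (0.26 ± 0.29). The groups overlapped at each of these promoters, and without vehicle replicate 3 the E2f5 difference was -0.06. With any 1 library left out the E2f1 difference ran from 0.09 to 0.37 and that of E2f3 from -0.27 to -0.07.

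Origin licensing and replication genes gave 11 peaks with a median of -0.17, 2 above 0 and 9 below, none past the threshold. Over all start-site peaks 2140 of 4162 were below 0, and no test was made of the groups by role. The 2 above 0 in this group were Mcm9 (0.26) and Orc6. The summed signal of the 11 peaks was 170, 157, 177 and 156 in vehicle and 158, 139, 161 and 176 in myoglobin. The vehicle and myoglobin sums overlapped, and the summed ratio was 0.959. Mcm5, a subunit of the replicative helicase, held 6, 5, 16 and 5 against 5, 5, 2 and 5 (-0.68 ± 0.44, limma adjusted p = 0.752), and vehicle replicate 3 alone stood high. Orc1, the largest subunit of the origin recognition complex, held 7, 13, 13 and 11 against 9, 3, 11 and 13 (-0.37 ± 0.35). Pold1, the catalytic subunit of DNA polymerase delta, held 31, 17, 25 and 20 against 25, 18, 11 and 19 (-0.35 ± 0.24). The lowest value of each of these 3 was in myoglobin replicate 2 or 3, the shallowest libraries. Without replicate 2 the Orc1 difference was 0.02, and without replicate 4 it was -0.58. With any 1 library left out the Pold1 difference ran from -0.51 to -0.14 (without myoglobin replicate 3). It was -0.21 without vehicle replicate 1. With any 1 library left out that of Mcm5 ran from -0.82 to -0.32 (without vehicle replicate 3). Without myoglobin replicate 3 it was -0.43. Orc6, another subunit of the origin recognition complex, went the other way with 17, 12, 14 and 8 against 14, 14, 24 and 26 (0.57 ± 0.27, limma unadjusted p = 0.0418, adjusted p = 0.633). Its myoglobin replicates 1 and 2 lay inside the vehicle range, and replicates 3 and 4 above it.

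Mitotic regulators and the anaphase promoting complex, the ubiquitin ligase that ends mitosis, gave 7 peaks with a median of -0.11 and a range of -0.49 to 0.73. Anapc16, a small subunit of that complex, held 14, 12, 6 and 17 in vehicle and 15, 14, 24 and 30 in myoglobin (means 12.2 ± 4.65 and 20.8 ± 7.63, SD, n = 4). Myoglobin replicates 3 and 4 were above every vehicle library, and the groups overlapped through the others. The difference was 0.73 ± 0.28, with a 95% interval of 0.17 to 1.29 before adjustment (limma unadjusted p = 0.0112, adjusted p = 0.551). Without vehicle replicate 3 it was 0.45 (limma adjusted p = 0.921), and without vehicle replicate 4 it was 0.90. With any 1 library left out the limma adjusted p ran from 0.261 to 0.921. The other subunit promoters, Anapc4 and Anapc5, both had a difference of 0.08. Cdc25a, the phosphatase that activates cyclin-dependent kinases, held 18, 12, 20 and 16 against 12, 17, 7 and 11 (-0.49 ± 0.29, limma adjusted p = 0.710). Its difference was -0.29 without myoglobin replicate 3 and -0.68 without myoglobin replicate 2. Cdc20, the mitotic activator of the complex, held 7, 14, 10 and 11 against 10, 20, 9 and 4 (-0.11 ± 0.35). Its highest and lowest values both came from myoglobin libraries, and the difference was 0.24 without replicate 4 and -0.45 without replicate 2.

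Kinetochore proteins and kinesins gave 13 peaks with the highest group median, 0.35, of which 9 were above 0 and 4 below. The summed signal was 222, 205, 223 and 209 in vehicle and 190, 233, 290 and 222 in myoglobin, so the groups overlapped and myoglobin spread more widely. Cenpu, a member of the constitutive centromere network, held 22, 19, 22 and 13 against 21, 24, 32 and 26 (0.43 ± 0.23, limma adjusted p = 0.670), and 1 myoglobin library lay inside the vehicle range. Cenpl, of the same network, held 9, 4, 6 and 4 against 12, 3, 17 and 10 (0.64 ± 0.40, limma adjusted p = 0.741), which are among the lowest values of all members. The Cenpl difference was 0.36 without myoglobin replicate 3 and 1.08 without replicate 2. That of Cenpu ran from 0.27 (without vehicle replicate 4) to 0.52 with any 1 library left out. Cenpf, a large outer kinetochore protein made in G2 phase, held 37, 31, 31 and 29 against 23, 29, 32 and 25 (-0.23 ± 0.19). Kif11, the motor that pushes spindle poles apart, held 21, 16, 18 and 17 against 16, 26, 19 and 15 (0.05 ± 0.24). Its sign depended on myoglobin replicate 2, without which the difference was -0.10. Kif1b, Kif3a, Kif12 and Kif27 are not mitotic motors but belong to transport or cilia families.

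Genes of the SMC complexes (condensin, which folds chromosomes, cohesin, which holds sister chromatids, and SMC5/6) gave 5 peaks with a median of 0.03. Smc6, a core subunit of the SMC5/6 complex that acts in repair by recombination, held 26, 26, 25 and 23 in vehicle and 29, 37, 34 and 34 in myoglobin (means 25 ± 1.41 and 33.5 ± 3.32, SD, n = 4). Every myoglobin library was above every vehicle library, the single such case among the members. The difference was 0.40 ± 0.19 (limma unadjusted p = 0.0380, adjusted p = 0.620), and the Gen1 gene, a resolvase of recombination junctions, starts head to head 79 bp away. Ncapd2, a condensin I subunit, held 13, 11, 12 and 19 against 6, 8, 15 and 9 (-0.53 ± 0.32, limma adjusted p = 0.716). Its myoglobin replicate 3 lay inside the vehicle range and the other 3 below it.

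DNA repair genes gave 5 peaks with a median of -0.17 and a range of -0.29 to 0.19. Fancb and Fance belong to the core complex of the Fanconi anaemia pathway, which unhooks DNA crosslinks. Fancb held 29, 24, 22 and 21 against 16, 15, 26 and 22 (-0.29 ± 0.23). Fance held 32, 33, 31 and 34 against 34, 29, 28 and 22 (-0.21 ± 0.19), with vehicle libraries within 3 units of each other. The groups overlapped at both. With any 1 library left out Fancb ran from -0.43 to -0.18 (without myoglobin replicate 2). Fance ran from -0.30 to -0.10 (without myoglobin replicate 4).

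The 12 promoters with a shared stem but mixed or other roles had a median of 0.23, 9 above 0 and 3 below. The sign of the members' median rested on this loosely drawn group, since the remaining 58 peaks had a median of -0.05. The 58 are not all at cell cycle genes, since they include Cdk9, Kif1b, Kif3a, Kif12 and Kif27. Rad23b, which carries ubiquitinated proteins to the proteasome and helps detect bulky DNA lesions, held 37, 29, 34 and 40 against 46, 31, 43 and 65 (0.35 ± 0.18, limma unadjusted p = 0.0468, adjusted p = 0.649). Its myoglobin replicate 2 lay inside the vehicle range and the other 3 above it. The difference was 0.18 without myoglobin replicate 4 and 0.64 without both of the shallowest libraries. Cdk2ap2, which encodes a protein associated with Cdk2, held 39, 47, 39 and 39 against 41, 52, 50 and 48 (0.21 ± 0.16). Ccnb1ip1, a gene of meiotic crossing over in mice, held 48, 42, 44 and 42 against 41, 52, 34 and 27 (-0.23 ± 0.17), and its difference was -0.07 without myoglobin replicate 4 and -0.38 without replicate 2.

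**Figure D3:**
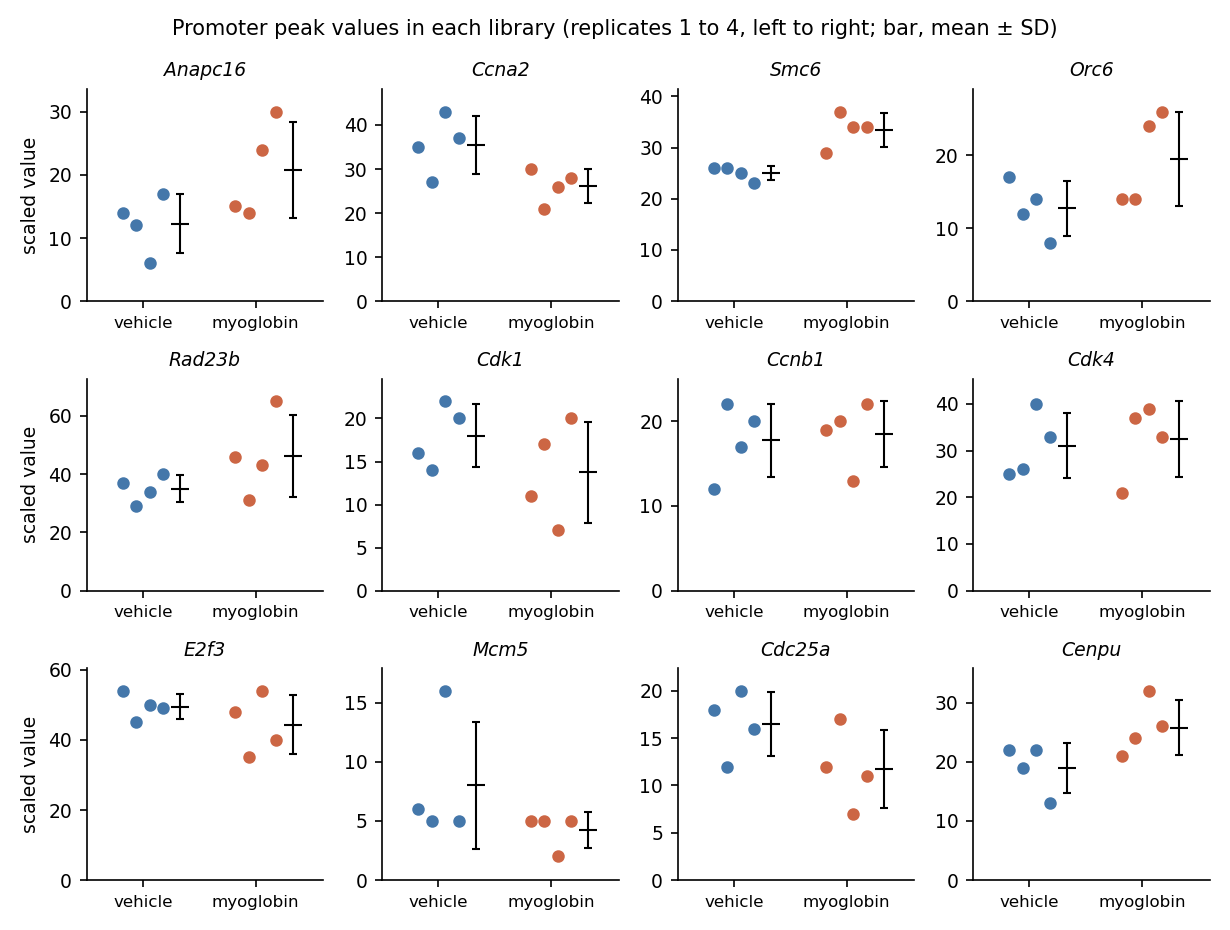
Scaled value of 12 member promoter peaks in each of the 4 vehicle and 4 myoglobin libraries (points, replicates 1 to 4 from left to right), with mean and SD. The groups separate at Smc6, 23 to 26 against 29 to 37, and overlap at the other 11.

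**Figure D4:**
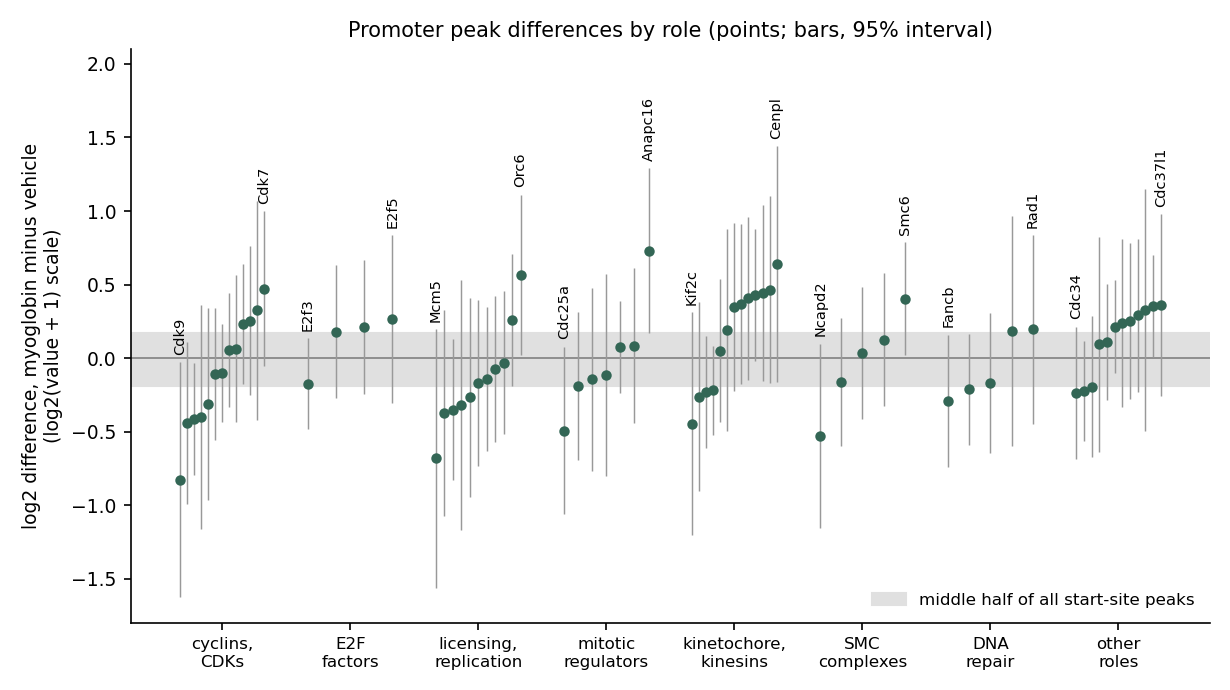
Log2 difference (myoglobin minus vehicle, y axis) of every member peak, grouped by role and ordered by size, with 95% interval bars. The grey band covers the middle 50% of start-site peaks, from -0.19 to 0.17, and the member estimates lie on both sides of it in most groups, from -0.83 to 0.73.

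Split by promoter letters after the motif shares were known, the 14 member peaks with E2F letters had a median of -0.22, with 11 of 14 below 0 and 0 at an unadjusted p under 0.05. With any 1 library left out the median ran from -0.29 (without myoglobin replicate 1) to -0.11 (without myoglobin replicate 2). It was -0.14 without vehicle replicate 3. They were Mcm3, Mcm5, Orc1, Orc3, Pold1, Pold3, Cdc25a, Cdk1, E2f3, Cenpl, Cenps, Ncapg, Ncapg2 and Ncapd2, and the sequences above show the letters in 4 of them. Their summed signal was 249, 232, 282 and 242 in vehicle and 226, 234, 227 and 231 in myoglobin, with groups that met at 232 and 234. The 42 member peaks whose promoter had no E2F letters had a median of 0.10. Not all of the 42 were searched under their peak. At E2f1 the RefSeq start site lay 466 bp from the deposited one, and the searched bases missed the peak. The search also missed the peaks of E2f8 and Kif12 and the Cdk9 peak at 87 bp. Among the other start-site peaks of the table, the 138 with E2F letters had a median of -0.01 with 71 below 0, and summed to 2764 to 2892 in vehicle and 2781 to 2880 in myoglobin. The members were also split by the other letters searched. The 14 member peaks with TTTGAA had a median of 0.09, with 8 above 0 and 6 below, against 0.04 in the 42 without. The CCAAT box gave medians of 0.05 with and 0.05 without, and the ETS letters 0.10 and 0.04. The GC box gave 0.05 and -0.10, and the NRF1 core 0.19 (3 peaks) and 0.05. No test was made of any of these splits.

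Further genes of the same processes were read from a list of 109, of which 47 had a start-site peak (49 peaks). 0 of the 49 passed the limma threshold (lowest adjusted p = 0.595), 5 (10.2%, against 7.60% of all peaks and 6.94% of the start-site peaks other than members) were at an unadjusted p under 0.05, 27 were above 0 and 22 below, and the median was 0.00. The 4 of smallest p are given next. Mybl2, the B-Myb factor of mitotic genes, held 19, 18, 20 and 12 against 17, 5, 7 and 17 (-0.68 ± 0.30). Tfdp2, a dimer partner of E2F factors, held 22, 19, 17 and 22 against 12, 23, 6 and 15 (-0.61 ± 0.27). Slbp, which binds the stem-loop of replication-dependent histone mRNAs, held 22, 21, 33 and 21 against 19, 17, 13 and 18 (-0.50 ± 0.23, limma adjusted p = 0.620). Its groups did not overlap, which was so for 1 of the 49 peaks, against 3.04% of all peaks and 2.88% of start-site peaks. Chaf1b, a subunit of the chromatin assembly factor that loads new histones, held 5, 11, 16 and 15 against 12, 12, 24 and 25 (0.62 ± 0.30).

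Of the 16 called peaks, 4 lay within 200 kb of a member, near 2 members. How many other start-site peaks have a called peak within that distance was not counted, so these are given as positions only. Ncapg, a condensin I subunit with a difference of 0.13, lies 60.7 and 61.6 kb from 2 peaks that rose with myoglobin (log2 differences of 3.93 and 3.35, limma adjusted p = 6.5e-13 and 7.0e-06) and 188 kb from the Lcorl promoter peak, which rose by 0.63 (limma adjusted p = 0.0150). Mcm5, at -0.68, lies 25.4 kb from a peak that rose by 1.20 (limma adjusted p = 0.0429). The member promoters beside these peaks did not pass the threshold.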

How the data were processed

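Peak values were taken as deposited, 1 column per library, on mm10. They are treated as a score: the deposited columns hold whole numbers whose nearly equal totals and skipped values show scaling and rounding by the authors, so no count model was used. Per the submitters' processing notes, the tools included DESeq2 1.36.0, featureCounts, Picard 3.0.0, STAR 2.7.10a and Trimmomatic 0.39. How duplicates, Tn5 offsets and peak calling were handled is not given in the sources used here. For every library the scaling factor was estimated from how unevenly the whole numbers were filled, and values divided by it gave estimated reads. A factor below 1, as in all vehicle libraries (0.6235 to 0.971), skips no whole number. Both this step and the fit were tested on simulated data.

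Differences come from limma 3.58.1 in R 4.3.3 on log2(value + 1), which understates the change of low peaks, with 1 term for treatment, a variance trend and no filter on low values. P-values of all 6425 peaks were adjusted together by Benjamini-Hochberg, with a threshold of 0.05. The prior variance had 78.5 degrees of freedom against 6 from the libraries. The members and lists were chosen with earlier results of these data known. Named were, in each role, the 2 peaks with the smallest p and the 1 with the highest vehicle level per 100 bp, any peak with separated groups and 31 set names, of which 12 were members; this gave 27 peaks. Anapc4, Anapc5, Cenpc, Aurkaip1 and the second Cdk9 peak were added after their values were seen, as were the members listed with E2F letters. Promoter sequences came from RefSeq (GRCm38.p6). The 14 genes without a match have no sequence here.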

Additional observations from a re-analysis of the deposited data

Results flagged for a closer look

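For the 27 named peaks and for the members' share of all signal, 56 sets of 4 libraries were searched for a library far from the other 3, and 4 were found, against 2.8 that chance gives at 1 in 20. The Mcm5 peak read 16 in vehicle replicate 3, where the other vehicle libraries read 5 or 6, and 2 in myoglobin replicate 3, where the others read 5. The Cdk9 peak 281 bp from the start site read 2 in myoglobin replicate 3, where the others read 6. The Cdk2ap2 peak read 47 in vehicle replicate 2, where the others read 39. These are small whole numbers, and ties among the other 3 libraries shorten the gap needed.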

How the results depend on the processing

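In each of the alternatives run, 0 members passed the threshold. Their lowest adjusted p was 0.113 (Rad23b, without the shallowest libraries, myoglobin replicates 2 and 3, an alternative chosen after seeing the data). Over all peaks the count of 16 became 1 with peaks of mean 50 or more (no member is that high), 9 with a pseudocount of 0.1, and 7 to 15 with a library left out. Of the single-library settings, the count moved by over 1.5 times without vehicle replicate 1 (7), 2 (9) or 4 (8). With the replicate block it was 10, with a lowest member adjusted p of 0.604; same-numbered libraries deviated together by correlations of only -0.013 to 0.026, so the numbers are not taken as pairs. The median over members stayed between 0.04 and 0.06 under other scalings, pseudocounts, weights and the filter at a mean of 10. With a library left out it ran from -0.017 (without myoglobin replicate 3) to 0.048, and it was 0.01 without the shallowest libraries.

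Of 456 single-member values, 440 kept their direction, and 16 at 7 peaks reversed, all at peaks with a main difference of at most 0.37 in size. With a library left out the ranges were -0.10 to 0.22 for Ccnb1, -0.45 to 0.24 for Cdc20, -0.043 to 0.24 for Cdk4, -0.064 to 0.49 for E2f5, -0.10 to 0.15 for Kif11 and -0.58 to 0.021 for Orc1. Without the shallowest libraries the difference was -0.028 for Ccne2, -0.20 for Cdk4, -0.20 for Kif11 and 0.015 for Orc1. Among those that kept their sign, that setting moved Ccna2 to -0.27, Pold1 to -0.05, Cdk1 to -0.24, Cenpf to -0.40, Cdk2ap2 to 0.12, Ccnb1ip1 to -0.39, E2f1 to 0.38 and Cdc20 to -0.60. The cause was not tested. Under the same setting the median of the 14 members with E2F letters was -0.16, with 9 below 0.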
